A study of Danio rerio with 32 samples.

Results

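The 9 genes described here encode regulators and signals of the embryonic midline. They are the transcription factor genes noto, foxa, foxa2, foxa3 and twist2, the hedgehog ligand genes shha and shhb, the secreted factor gene ism1 and the Nodal co-receptor gene tdgf1. They were chosen by name, as the rows of the count table with these zebrafish symbols, and extracellular matrix genes were left out. All 9 were present among the 32057 genes of the table, and all 9 passed the filter on low counts. RNA had been sequenced from pools of 80 zebrafish tailbuds at 16 somites, with 4 pools in each of 8 groups. The groups were rad21-/-, rad21+/-, stag2b-/- and wild type (WT), each with BIO or untreated. BIO (6-bromoindirubin-3′-oxime) inhibits the kinase GSK3 and so stimulates Wnt signaling, and it was given at 2.5 µM in the medium from 4 h after fertilization until dissection. For each gene 1 mutant line was used (rad21nz171 or stag2bnz207), and embryos of the rad21 line had been sorted by genotyping the heads. WT embryos were of the WIK strain, so a difference between a mutant and WT and a difference between fish lines cannot be told apart. The rad21-/- and rad21+/- pools came from the same line.

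Rad21 is a core subunit of cohesin, the ring complex that holds sister chromatids together and shapes chromatin loops, and Stag2b is one of the alternative Stag subunits. Midline progenitor cells in the tailbud give rise to the notochord, the floor plate of the neural tube and the hypochord. Noto directs axial mesoderm toward notochord, FoxA factors act in floor plate, notochord and endoderm, and the hedgehog ligands made by notochord and floor plate pattern the adjacent neural tube and somites. In a tissue pool, fewer midline cells and less RNA per cell cannot be told apart.

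Library totals ran from 32464614 to 115057368 counted fragments, with a median of 52391330. Levels are given as CPM, the fragment count of a gene scaled to library size, after TMM scaling over the 32 libraries. The mutated gene rad21a was at 53.9 ± 8.52 CPM in untreated rad21-/- and 378 ± 31.2 CPM in untreated rad21+/- pools, against 784 ± 70.8 CPM in untreated WT pools (SD, n = 4 each). The stag2b transcript was at 165 ± 7.76 CPM in untreated stag2b-/- and 188 ± 22.1 CPM in untreated WT pools, so its level does not check the stag2b-/- labels. All 8 tailbud progenitor markers were detected in each group, with summed levels between 1125 and 2318 CPM, whereas the 5 head and hindbrain markers summed to between 10.9 and 21.2 CPM. Correlations of each library with the mean of the other pools of its group lay between 0.977 and 0.996, and the lowest 3 belonged to untreated WT replicates 1, 2 and 3. Pools of a group differed by more than sampling noise. The p-values measure the spread between pools, estimated jointly over all groups in a fit and not only over the groups compared. Calls are at 5% FDR with edgeR, and each log2 fold change is followed by its standard error.

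Per kilobase of exon, noto had the highest level of the 9 genes in untreated WT tailbuds, at 52.1 ± 8.03 CPM per kb. It was followed by ism1 at 27.1 ± 1.45, foxa2 at 18.3 ± 2.10, foxa at 14.2 ± 2.45 and twist2 at 11.3 ± 1.48 CPM per kb. The remaining genes were foxa3 at 8.91 ± 1.46, tdgf1 at 7.10 ± 1.40, shha at 5.84 ± 1.18 and shhb at 1.85 ± 0.36 CPM per kb (SD, n = 4 pools each). The hedgehog ligand genes were thus the lowest of the set on the length-corrected scale, and shhb was below shha.

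**Figure D1:**
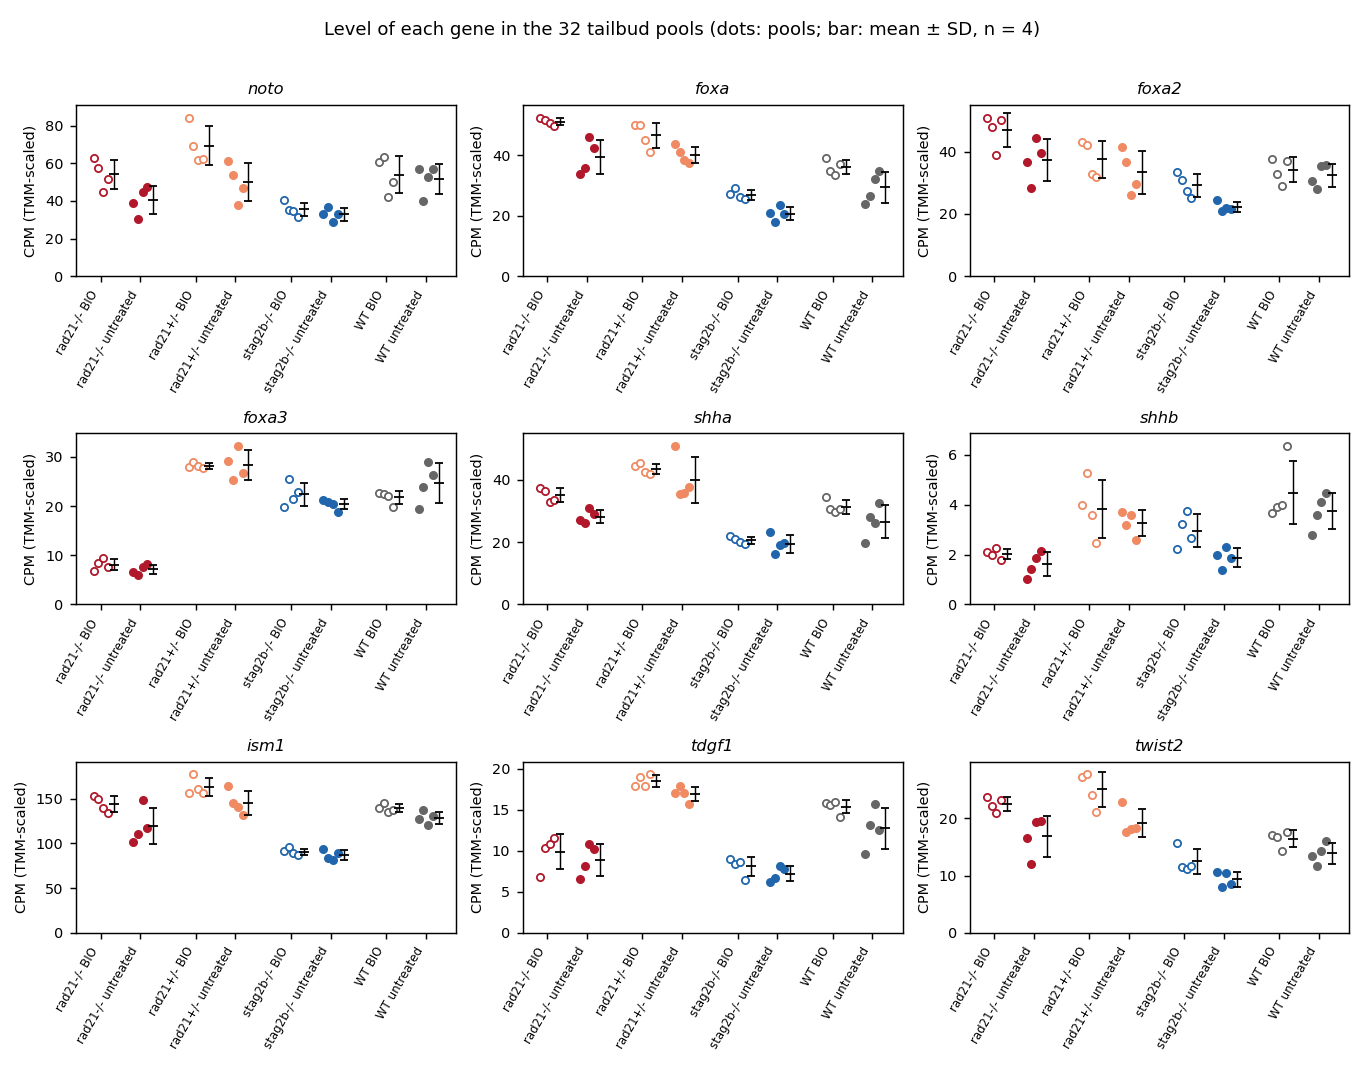
Level of each of the 9 genes in CPM (y axis, from 0) in the 32 pools, by genotype with BIO (open dots) left of untreated (filled dots). Each dot is 1 pool, and the bar is the mean ± SD of 4 pools. The foxa3 dots of both rad21-/- groups lie below 10 CPM, and the stag2b-/- dots of ism1 lie below those of the other genotypes.

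Which of these genes differ without normal Stag2b was asked by comparing untreated stag2b-/- with untreated WT tailbuds. In this comparison 7 of the 9 genes were called and all 7 fell, with 6.29% of the 20677 tested genes called in either direction and 3.88% called lower. The genes that fell were noto, foxa, foxa2, shhb, ism1, tdgf1 and twist2, and for each of them the highest stag2b-/- pool lay below the lowest WT pool. Over all tested genes, the share whose pools lay apart was not counted, in this or any later comparison. All 9 fold changes were below 0, with a median log2 value of -0.58, against -0.01 over all tested genes. Most of these genes had been picked by the study from the same libraries, so their count is not independent evidence of the direction.

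Among the transcription factor genes, noto (ENSDARG00000021201, chr13:14976108-14978104, plus strand, GRCz11), which is needed for notochord fate, had 33.1, 36.8, 28.6 and 33.1 CPM in stag2b-/- pools, against 57.0, 40.05, 52.8 and 56.7 CPM in WT pools. WT replicate 2 was the lowest WT pool and still above every stag2b-/- pool. The log2 fold change was -0.66 ± 0.16 (edgeR adjusted p = 0.0156). The floor plate and notochord gene foxa2 (ENSDARG00000003411, chr17:42565998-42568498, minus strand) had 24.6, 20.8, 21.97 and 21.4 CPM in stag2b-/- pools, against 30.7, 28.0, 35.3 and 35.7 CPM in WT pools, a log2 fold change of -0.56 ± 0.15 (edgeR adjusted p = 0.0291). Its relative foxa (ENSDARG00000087094, chr14:33973146-33981544, minus strand) had 20.8, 18.01, 23.4 and 20.7 CPM in stag2b-/- pools, against 23.8, 26.5, 32.3 and 34.8 CPM in WT pools, a log2 fold change of -0.51 ± 0.13 (edgeR adjusted p = 0.0247). The highest stag2b-/- pool of foxa lay just below the lowest WT pool, and foxa lies 5.45 Mb from stag2b on chromosome 14. The bHLH gene twist2 (ENSDARG00000078266, chr9:45839260-45843479, plus strand) had 10.6, 7.96, 10.4 and 8.49 CPM in stag2b-/- pools, against 13.3, 11.8, 14.4 and 16.1 CPM in WT pools, with a log2 fold change of -0.58 ± 0.16 (edgeR adjusted p = 0.0339).

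Of the signal genes, ism1 (ENSDARG00000020541, chr13:34765141-34793487, minus strand), which encodes the secreted protein Isthmin 1, gave the smallest adjusted p of the set. It had 93.3, 83.2, 81.8 and 89.0 CPM in stag2b-/- pools, against 127, 137, 121 and 130 CPM in WT pools, a log2 fold change of -0.58 ± 0.11 (edgeR adjusted p = 0.00344). The gap between the groups was wider than the range within either of them. The genes shha and ism1 each overlap a gene on the other strand, and counting was by strand. The gene tdgf1 (ENSDARG00000035095, chr10:1955475-1961930, minus strand), which encodes the co-receptor that Nodal ligands require, had 6.22, 6.72, 8.11 and 7.76 CPM in stag2b-/- pools, against 9.56, 13.2, 15.6 and 12.5 CPM in WT pools. Its log2 fold change was -0.83 ± 0.17 (edgeR adjusted p = 0.00489). The hedgehog ligand gene shhb (ENSDARG00000038867, chr2:30050541-30055432, minus strand) had 2.00, 1.37, 2.28 and 1.88 CPM in stag2b-/- pools, against 2.79, 3.59, 4.11 and 4.45 CPM in WT pools, and its log2 fold change of -0.997 ± 0.24 was the most negative of the 9 (edgeR adjusted p = 0.0153).

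The remaining 2 genes did not pass the test. The main midline hedgehog ligand gene shha (ENSDARG00000068567, chr7:40884012-40893295, plus strand) had 23.3, 16.1, 19.1 and 19.6 CPM in stag2b-/- pools, against 19.7, 28.1, 26.01 and 32.6 CPM in WT pools, and the groups overlapped through 1 WT pool. Its log2 fold change was -0.46 ± 0.15 (edgeR adjusted p = 0.0849), with a 95% interval from -0.78 to -0.14. With all 32 libraries in the fit shha was called (log2 fold change -0.45, edgeR adjusted p = 0.0127). The gene foxa3 (ENSDARG00000012788, chr18:46350574-46354269, minus strand), a FoxA gene known from endoderm, averaged 20.3 ± 1.02 CPM in stag2b-/- and 24.6 ± 4.04 CPM in WT pools, with a log2 fold change of -0.29 ± 0.13 (edgeR adjusted p = 0.22).

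The number of calls in stag2b-/- depended on single libraries. It was 2 of 9 without WT replicate 4, 3 without stag2b-/- replicate 2, 4 without either WT replicate 3 or stag2b-/- replicate 4, and between 5 and 8 without each of the others. Only ism1 and tdgf1 were called in every one of these 8 fits. The calls of foxa and twist2 were lost without any of the 4 libraries that gave 4 calls or fewer, that of foxa2 without these and stag2b-/- replicate 3, that of noto without WT replicate 4 or stag2b-/- replicate 3, and that of shhb without WT replicate 4 or stag2b-/- replicate 2, with adjusted p values up to 0.124. Markers of other cells moved in this comparison as well. The 4 neural crest markers, of which 2 were called higher, summed to 218 to 278 CPM in stag2b-/- and 150 to 194 CPM in WT pools, and the 3 endothelial markers, of which 2 were called lower, to 64.3 to 75.1 CPM in stag2b-/- and 68.9 to 112 CPM in WT pools. The 8 tailbud progenitor markers summed to 1517 to 1959 CPM in stag2b-/- and 1735 to 2310 CPM in WT pools, with none called by edgeR or DESeq2 and 1 at an unadjusted p under 0.05. Of 3 blood markers, 1 was called lower, with sums of 66.8 to 159 CPM in stag2b-/- and 115 to 173 CPM in WT pools. No marker of these lists was at 0 in any group. The part of these cells in the midline result was not tested.

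In rad21-/- tailbuds the genes called went both ways. In untreated rad21-/- against WT pools 4 of the 9 genes were called, with 32.5% of all tested genes called. This count is not far from that share, and it was not tested against it. The genes foxa3, shhb and tdgf1 fell and foxa rose, and the median log2 fold change of the 9 was -0.10, against -0.02 over all tested genes. The largest change of any of the 9 genes against WT was that of foxa3, which had 6.66, 5.97, 7.65 and 8.21 CPM in rad21-/- pools, against 19.4, 23.8, 28.9 and 26.3 CPM in WT pools. Every rad21-/- pool was at less than 0.5 of the lowest WT pool. The log2 fold change was -1.79 ± 0.14 (edgeR adjusted p = 2.95e-08), and it lay between -1.88 and -1.70 when single libraries were left out.

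The second gene that fell without overlap was shhb, with 1.04, 1.43, 1.87 and 2.16 CPM in rad21-/- pools, against 2.79, 3.59, 4.11 and 4.45 CPM in WT pools (log2 fold change -1.20 ± 0.24, edgeR adjusted p = 0.000908). The gene tdgf1 had 6.53, 8.09, 10.8 and 10.2 CPM in rad21-/- pools, against 9.56, 13.2, 15.6 and 12.5 CPM in WT pools. These ranges overlapped, and the log2 fold change was -0.51 ± 0.16 (edgeR adjusted p = 0.0236). In the opposite direction, foxa had 33.7, 35.7, 46.0 and 42.4 CPM in rad21-/- pools, against 23.8, 26.5, 32.3 and 34.8 CPM in WT pools, with a log2 fold change of 0.43 ± 0.13 (edgeR adjusted p = 0.017). One rad21-/- pool of foxa lay below the highest WT pool. The calls of foxa and of tdgf1 were each lost in 3 of the 8 fits with a library left out, whereas those of foxa3 and shhb were kept in all 8. For foxa these libraries were WT replicate 1 and rad21-/- replicates 3 and 4, and the highest adjusted p was 0.0674. For tdgf1 they were rad21-/- replicates 1 and 2 and WT replicate 3, with adjusted p values up to 0.0819.

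The notochord gene noto was not called in rad21-/- pools, at 40.5 ± 7.43 CPM, against 51.6 ± 7.96 CPM in WT pools (log2 fold change -0.35 ± 0.16, edgeR adjusted p = 0.098). The values of foxa2, shha, ism1 and twist2 overlapped between the groups, and their log2 fold changes lay between -0.10 for ism1 and 0.28 for twist2. The 4 neural crest markers were all called higher in rad21-/-, with sums of 253 to 284 CPM in rad21-/- and 150 to 194 CPM in WT pools. Of the 8 tailbud progenitor markers, 5 were lower and 2 higher, and they summed to 1125 to 1452 CPM in rad21-/- and 1735 to 2310 CPM in WT pools. Neuron markers (2 of 4 called, higher) summed to 120 to 158 CPM in rad21-/- and 69.8 to 106 CPM in WT pools. Skeletal muscle markers (2 of 4 called) summed to 182 to 275 CPM in rad21-/- and 64.4 to 156 CPM in WT pools. Endothelial markers (2 of 3 called, lower) summed to 41.8 to 53.6 CPM in rad21-/- and 68.9 to 112 CPM in WT pools, and blood markers (2 of 3 called, lower) to 55.5 to 88.1 CPM in rad21-/- and 115 to 173 CPM in WT pools. Their part in the values of the 9 genes was not tested.

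In rad21+/- tailbuds the genes that changed were higher. In untreated rad21+/- against WT pools 3 of the 9 genes were called, all of them higher, with 20.5% of all tested genes called and 10.8% called higher. Whether the count exceeds these shares was not tested. The gene shha had 50.8, 35.5, 35.6 and 37.8 CPM in rad21+/- pools, against 19.7, 28.1, 26.01 and 32.6 CPM in WT pools, a log2 fold change of 0.59 ± 0.15 (edgeR adjusted p = 0.00986). The gene foxa had 43.6, 41.0, 38.6 and 37.5 CPM in rad21+/- pools, against 23.8, 26.5, 32.3 and 34.8 CPM in WT pools, a log2 fold change of 0.45 ± 0.13 (edgeR adjusted p = 0.0189). The gene twist2 had 22.9, 17.7, 18.1 and 18.2 CPM in rad21+/- pools, against 13.3, 11.8, 14.4 and 16.1 CPM in WT pools, a log2 fold change of 0.47 ± 0.16 (edgeR adjusted p = 0.0409). None of these 3 genes overlapped between the groups, and neither did tdgf1, which was not called (log2 fold change 0.41 ± 0.16, edgeR adjusted p = 0.0816). The count was 1 without WT replicate 1, WT replicate 2 or rad21+/- replicate 1, and the call of twist2 held in only 1 of the 8 fits with a library left out, that without WT replicate 4. All 4 neuron markers were called higher in this comparison, with sums of 133 to 159 CPM in rad21+/- and 69.8 to 106 CPM in WT pools. All 3 blood markers were called lower, with sums of 26.7 to 57.0 CPM in rad21+/- and 115 to 173 CPM in WT pools. Skeletal muscle markers (2 of 4 called) summed to 124 to 264 CPM in rad21+/- and 64.4 to 156 CPM in WT pools. The part of these cells was not tested.

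Within the rad21 line, the homozygotes could be compared with heterozygotes of the same line. In untreated rad21-/- against rad21+/- pools 3 of the 9 genes were called and all 3 fell, with 5.32% of all tested genes called and 3.84% called lower. They were foxa3, tdgf1 and shhb, and the comparison uses the same rad21-/- pools as that against WT. The gene foxa3 had 29.2, 25.3, 32.2 and 26.8 CPM in rad21+/- pools, which overlapped with WT, and its log2 fold change in rad21-/- against rad21+/- was -1.99 ± 0.14 (edgeR adjusted p = 4.39e-08). The gene tdgf1 had 16.98, 17.9, 17.04 and 15.7 CPM in rad21+/- pools, all above the highest rad21-/- pool, with a log2 fold change of -0.92 ± 0.16 in rad21-/- against rad21+/- (edgeR adjusted p = 0.00157). For shhb it was -1.01 ± 0.24 (edgeR adjusted p = 0.0148), and this call was lost without rad21-/- replicate 1 or 2 or rad21+/- replicate 1. The gene shha, which rose in rad21+/- against WT, did not overlap between rad21-/- and rad21+/- pools, at a log2 fold change of -0.50 ± 0.15. It was not called by edgeR (adjusted p = 0.0686) but passed with DESeq2 (0.0386), with all 32 libraries in the edgeR fit (0.00535) and with only the groups compared (0.0226). The log2 fold change of foxa was -0.02 ± 0.13 (edgeR adjusted p = 0.971). Of the 8 tailbud progenitor markers, 1 was called higher and 2 lower, with sums of 1125 to 1452 CPM in rad21-/- and 1361 to 1773 CPM in rad21+/- pools, and their part was not tested.

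The 2 homozygous mutants differed from each other directly. In untreated stag2b-/- against rad21-/- pools 6 of the 9 genes were called, with 27.6% of all tested genes called. These are the same pools as in the comparisons with WT, so this count is not independent evidence. The genes foxa, foxa2, shha, ism1 and twist2 were lower in stag2b-/- and foxa3 was higher, and none of these 6 overlapped between the groups. The shha call was lost without stag2b-/- replicate 2 (edgeR adjusted p = 0.0541), and the others held without each library. The gene foxa was at 20.7 ± 2.21 CPM in stag2b-/- and 39.5 ± 5.72 CPM in rad21-/- pools, a log2 fold change of -0.94 ± 0.13 (edgeR adjusted p = 3.78e-05). The gene foxa3 was at 20.3 ± 1.02 CPM in stag2b-/- and 7.12 ± 1.00 CPM in rad21-/- pools, a log2 fold change of 1.499 ± 0.14 (edgeR adjusted p = 2.47e-07). The 2 signal genes that fell against WT in both mutants did not pass the test between them, with log2 fold changes of 0.20 for shhb (95% interval -0.30 to 0.70) and -0.32 for tdgf1 (95% interval -0.67 to 0.03). The gene noto had a log2 fold change of -0.31 ± 0.16 between the mutants (edgeR adjusted p = 0.148). Of the 8 tailbud progenitor markers, 3 were called higher and 2 lower in stag2b-/-, with sums of 1517 to 1959 CPM in stag2b-/- and 1125 to 1452 CPM in rad21-/- pools. Skeletal muscle markers (2 of 4 called) summed to 88.0 to 282.5 CPM in stag2b-/- and 182 to 275 CPM in rad21-/- pools. The part of these markers was not tested.

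**Figure D2:**
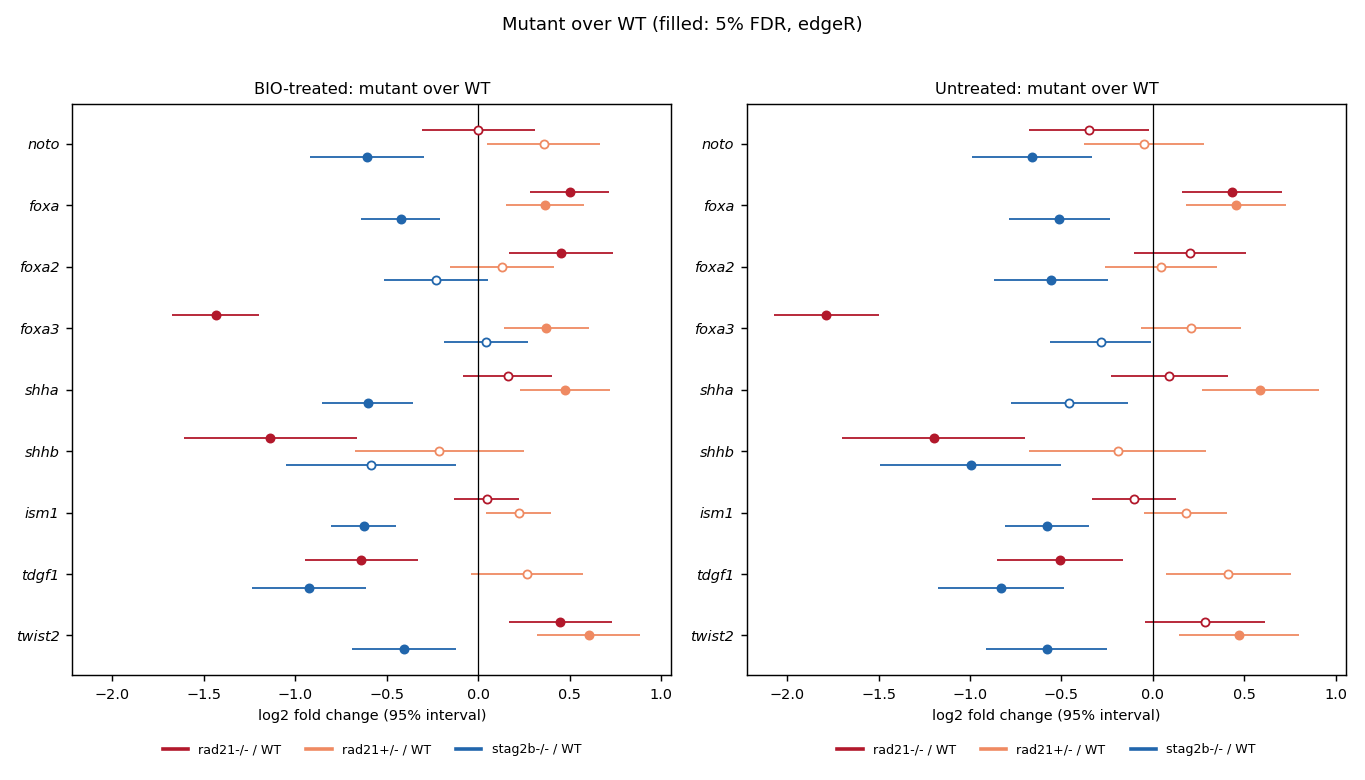
Log2 fold change of each gene in each mutant over WT, with 95% intervals, in BIO-treated pools (left) and untreated pools (right). Filled points passed 5% FDR with edgeR. The stag2b-/- points lie below 0 for all 9 genes untreated and for 8 of 9 with BIO, and foxa3 in rad21-/- lies at -1.43 with BIO and -1.79 untreated.

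Other genes of the floor plate, the notochord and the hedgehog pathway were read from lists. All lists used here were chosen with earlier results of these data known, so their counts are not independent evidence. Of all tested genes, the shares called in untreated pools against WT were 15.8% higher and 16.7% lower in rad21-/-, 10.8% higher and 9.75% lower in rad21+/-, and 2.41% higher and 3.88% lower in stag2b-/-. Of 12 tested floor plate and ventral neural tube genes, 7 fell and none rose in untreated rad21-/- against WT, with a list median log2 fold change of -0.91. The 3 largest falls were those of ntn1a, a netrin gene that guides commissural axons (-1.97 ± 0.21), the neural tube patterning gene nkx6.1 (-1.92 ± 0.17) and arxa, a homeobox gene of the floor plate (-1.72 ± 0.41). In stag2b-/- 3 of the 12 fell and none rose, with a median of -0.36, and the genes were nkx2.9 (-0.88 ± 0.22), ntn1b (-0.84 ± 0.21) and sulf1 (-0.37 ± 0.10). In rad21+/- only ntn1b was called, and it was higher (0.74 ± 0.21). The netrin gene ntn1b was at 2.198 ± 0.53 CPM in stag2b-/-, 2.45 ± 0.24 CPM in rad21-/- and 6.52 ± 0.30 CPM in rad21+/- pools, against 3.91 ± 1.22 CPM in WT pools (SD, n = 4 each). In rad21-/- the floor plate list thus included larger changes than those of foxa2, shha and foxa, which rose or did not pass. With BIO, 9 of the 12 fell in rad21-/- and 6 in stag2b-/- against WT, and none rose in either, with 18.8% and 7.04% of all tested genes called lower.

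Of 8 tested notochord and axial mesoderm genes, 4 fell in stag2b-/- against WT with a list median of -0.42. Named by size, they included the BMP antagonist gene chrd (-0.80 ± 0.15), the T-box gene tbxtb (-0.76 ± 0.16) and apln, which encodes the peptide Apelin (-0.51 ± 0.14). In rad21-/- 3 fell and 1 rose, with a median of -0.36. The riser was cmn (1.38 ± 0.38), a notochord gene, and the falls were those of tbxtb (-1.05 ± 0.16), ccn2a (-0.67 ± 0.18) and tbxta (-0.42 ± 0.13). The gene tbxta is also among the tailbud progenitor markers used here. The study counted tbxta and tbxtb with progenitor and mesoderm markers and ccn2a with hypochord markers. The levels of these genes are therefore not those of the notochord alone. The gene cmn was also the single call in rad21+/-, where it was higher (1.31 ± 0.38). It was at 172 ± 36.1 CPM in rad21-/- and 164 ± 41.0 CPM in rad21+/- pools, against 66.1 ± 36.2 CPM in WT pools, and WT pools spanned 26.03 to 96.9 CPM. The gene chrd averaged 50.5 ± 7.65 CPM in stag2b-/-, 89.4 ± 8.27 CPM in rad21-/- and 88.7 ± 16.3 CPM in rad21+/- pools, against 87.5 ± 16.8 CPM in WT pools.

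**Figure D3:**
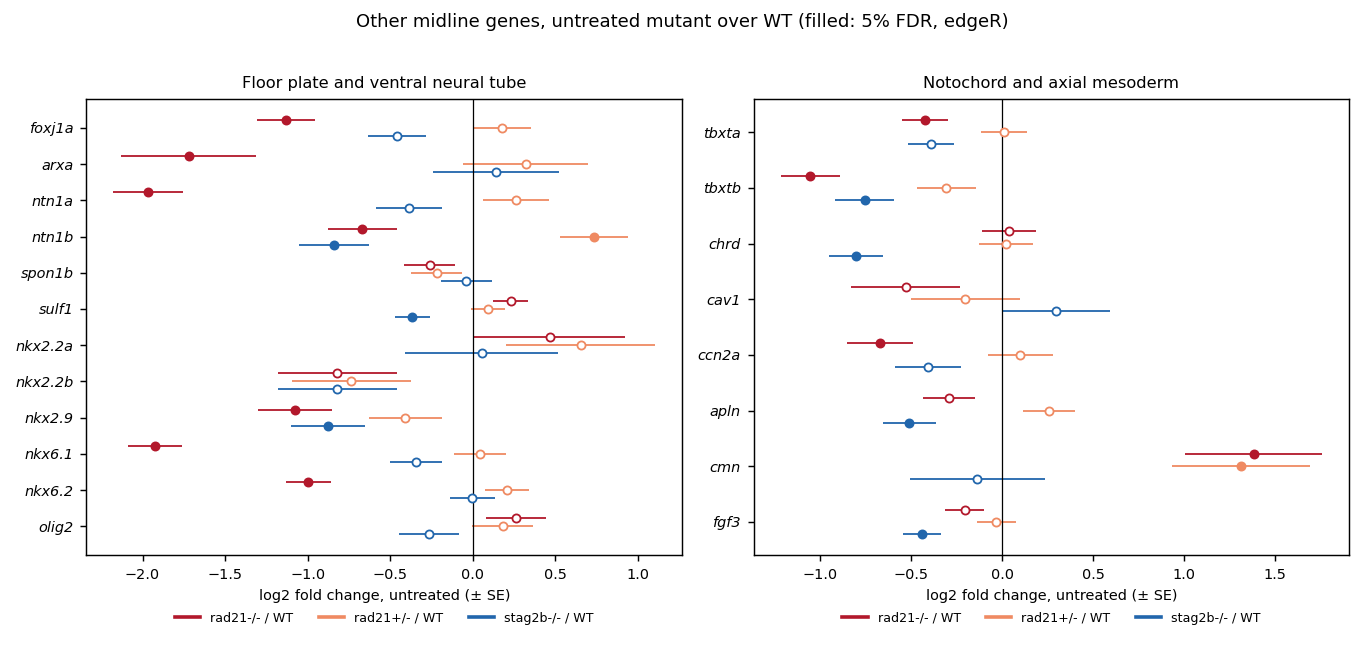
Log2 fold change ± SE of further floor plate and ventral neural tube genes (left) and notochord and axial mesoderm genes (right) in untreated mutants over WT. Filled points passed 5% FDR with edgeR. The points of ntn1a, nkx6.1 and arxa in rad21-/- lie between -1.97 and -1.72, and chrd lies at -0.80 in stag2b-/-.

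RNA levels of other hedgehog pathway genes were read beyond the ligands, and signaling activity was not measured. The receptor Patched 1 binds the ligands and its gene is itself induced by the pathway, Boc and Cdon are co-receptors, and Gli proteins carry the signal to the nucleus. Of 5 tested hedgehog receptor genes, 3 rose in rad21-/- against WT and 3 in rad21+/- against WT, with medians of 0.29 and 0.44, and none fell. In rad21-/- ptch1 (0.71 ± 0.18), cdon (0.38 ± 0.13) and boc (0.29 ± 0.09) rose, and in rad21+/- ptch1 (0.58 ± 0.18), cdon (0.50 ± 0.13) and boc (0.44 ± 0.09) rose. The receptor genes hhip (-0.24 ± 0.12 in rad21-/- and -0.04 ± 0.12 in rad21+/-) and smo (-0.01 ± 0.11 and -0.07 ± 0.11) were not called. In stag2b-/- none of the 5 was called by edgeR or DESeq2, 1 had an unadjusted p under 0.05, and the median was 0.09. Among 7 transducer genes, gli2b (1.07 ± 0.20) and gli3 (0.88 ± 0.15) rose and stk36 (-0.38 ± 0.14) fell in rad21-/-. The transducer gene gli1 was not called in rad21-/- (0.31 ± 0.18) or rad21+/- (0.18 ± 0.18). None of the 7 was called in stag2b-/- or in rad21+/- by either tool, with 2 and 0 at an unadjusted p under 0.05. Of 6 further ligand and ligand-release genes, ihha fell in rad21-/- (-2.01 ± 0.47), at 0.22 ± 0.12 CPM in rad21-/- and 0.90 ± 0.48 CPM in WT pools, and ihhb (0.83 ± 0.26) and disp1 (0.49 ± 0.14) rose in rad21+/-. In stag2b-/- none of these 6 was called by edgeR and 1 was called by DESeq2, with 1 at an unadjusted p under 0.05.

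The response to BIO was tested within each genotype, and the main edgeR fit (all 32 libraries, TMM, no replicate block) called at most 1 of the 9 genes in each. In WT pools BIO against untreated gave 1 call of 9, with 17.3% of all tested genes called. It was 1 of 9 in rad21-/- pools, with 7.16% of all genes called, 0 of 9 in rad21+/- pools, with 3.62%, and 1 of 9 in stag2b-/- pools, with 7.99%. In the main fit an unadjusted p under 0.05 was found for 6 of the 9 genes in rad21-/-, 4 in stag2b-/-, 2 in rad21+/- and 1 in WT. DESeq2 called 1 in rad21+/-. The gene called by the main fit in each genotype other than rad21+/- was foxa, and it rose. In rad21-/- it had 52.3, 51.7, 50.8 and 49.7 CPM with BIO, against 33.7, 35.7, 46.0 and 42.4 CPM untreated, a log2 fold change of 0.37 ± 0.11 (edgeR adjusted p = 0.0266). In stag2b-/- it had 27.1, 29.3, 26.04 and 25.4 CPM with BIO, against 20.8, 18.01, 23.4 and 20.7 CPM untreated, a log2 fold change of 0.38 ± 0.11 (edgeR adjusted p = 0.0269). Neither pair of groups overlapped. In WT it had 39.0, 34.9, 33.6 and 37.1 CPM with BIO, against 23.8, 26.5, 32.3 and 34.8 CPM untreated, with overlap and a log2 fold change of 0.30 ± 0.11 (edgeR adjusted p = 0.0483). The WT and stag2b-/- calls were each lost in 6 of the 8 fits with a library left out and the rad21-/- call in 4 of 8, with adjusted p values up to 0.169, 0.111 and 0.118. For WT the call held only without untreated replicate 3 or 4, for stag2b-/- only without untreated replicate 3 or BIO replicate 4, and for rad21-/- only without replicate 3 or 4 of either group.

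The other 8 genes were not called in any genotype by the main edgeR fit, and most of their fold changes with BIO were above 0. With a block for the replicate number, edgeR also called ism1 (adjusted p = 0.035) and twist2 (0.0284) in rad21-/-. It likewise called noto (0.0259) and twist2 (0.0479) in rad21+/- and foxa2 (0.0482) and twist2 (0.0368) in stag2b-/-, all higher with BIO. In rad21-/- edgeR also called ism1 with RLE size factors (0.0424) and shha with only the groups compared (0.0366). DESeq2 called ism1 (adjusted p = 0.0182) and twist2 (0.0306) in rad21-/-, noto (0.0386) in rad21+/-, and shhb (0.0463) and twist2 (0.0441) in stag2b-/-, all higher with BIO. The median log2 fold change of the 9 genes was 0.33 in rad21-/-, 0.17 in rad21+/-, 0.17 in stag2b-/- and 0.24 in WT pools, against 0.01, -0.01, -0.01 and -0.00 over all tested genes. The gene twist2 had log2 fold changes of 0.42 ± 0.14 in rad21-/-, 0.38 ± 0.14 in rad21+/-, 0.41 ± 0.14 in stag2b-/- and 0.25 ± 0.14 in WT pools (edgeR adjusted p = 0.0612, 0.108, 0.0658 and 0.233). The gene noto was at 69.3 ± 10.46 CPM with BIO and 49.9 ± 10.2 CPM untreated in rad21+/- pools without overlap (log2 fold change 0.47 ± 0.15, edgeR adjusted p = 0.0711). The largest value of any gene was that of shhb in stag2b-/-, at 2.96 ± 0.67 CPM with BIO and 1.88 ± 0.38 CPM untreated (log2 fold change 0.66 ± 0.23, edgeR adjusted p = 0.0795). Epidermal markers fell with BIO at the same time. All 5 were called lower in WT and stag2b-/- and 3 of 5 in rad21-/-, and in WT pools they summed to 15430 to 22200 CPM with BIO and 23670 to 51250 CPM untreated. In rad21+/- edgeR called 0 of the 5 and DESeq2 called 1. In WT pools 2 of 4 neural crest markers were also called lower, with sums of 126 to 143 CPM with BIO and 150 to 194 CPM untreated. Of 8 tailbud progenitor markers, edgeR called 2 in WT, 2 in rad21-/-, 0 in rad21+/- and 0 in stag2b-/-. In rad21-/- pools these markers summed to 1538 to 1617 CPM with BIO and 1125 to 1452 CPM untreated. In the other genotypes the summed ranges overlapped. Their part in the values of the 9 genes was not tested.

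**Figure D4:**
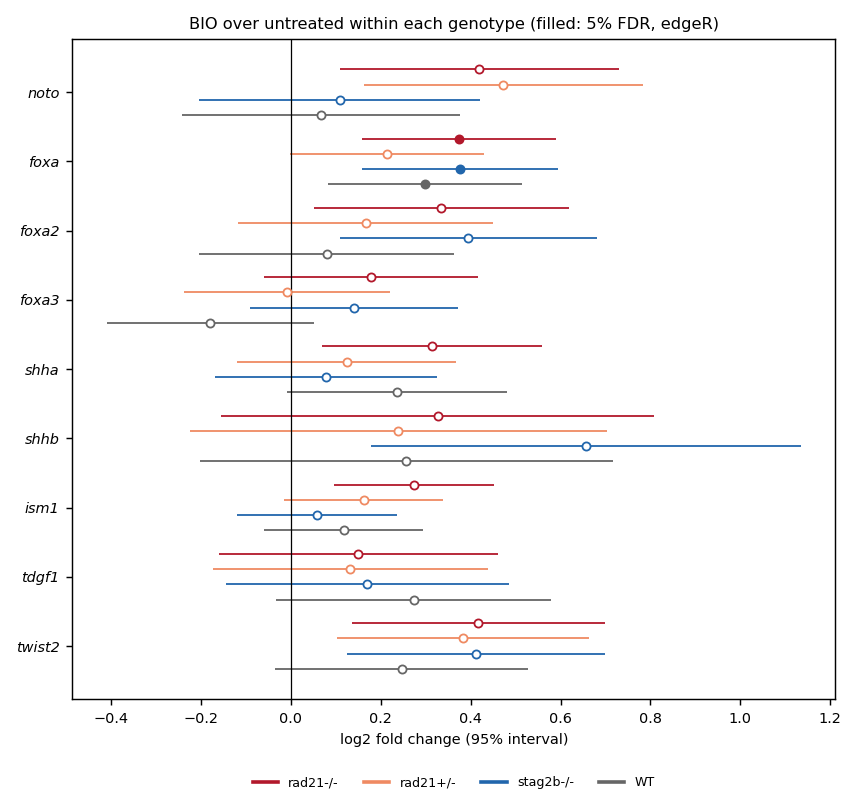
Log2 fold change with 95% interval of each gene in BIO-treated over untreated pools, by genotype. Filled points passed 5% FDR with edgeR. The filled points are those of foxa in rad21-/-, stag2b-/- and WT, at 0.37, 0.38 and 0.30.

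Whether the response to BIO differed between a mutant and WT was tested as an interaction. None of the 9 genes was called by edgeR or DESeq2 for rad21-/-, rad21+/- or stag2b-/-, with 0.874%, 0.912% and 1.34% of all tested genes called. Interaction coefficients on the log2 scale ran from -0.12 to 0.36 for rad21-/-, from -0.14 to 0.41 for rad21+/- and from -0.16 to 0.40 for stag2b-/-. The smallest adjusted p was 0.369, for foxa3 in rad21-/-, the only one of the 27 coefficients with an unadjusted p under 0.05. The 95% intervals were widest for shhb, from -0.26 to 1.06 in stag2b-/-, and narrowest for ism1, from -0.31 to 0.19 in stag2b-/-.

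With BIO, the stag2b-/- and WT pools still differed. In BIO-treated stag2b-/- against BIO-treated WT pools 6 of the 9 genes were called and all 6 were lower, with 13.6% of all tested genes called and 7.04% called lower. They were noto, foxa, shha, ism1, tdgf1 and twist2. The gene ism1 had 90.8, 95.4, 88.7 and 86.8 CPM in stag2b-/- pools with BIO, against 139, 146, 136 and 138 CPM in WT pools with BIO, a log2 fold change of -0.63 ± 0.09 (edgeR adjusted p = 6.72e-06). The gene tdgf1 had 9.01, 8.39, 8.60 and 6.43 CPM in stag2b-/- pools with BIO, against 15.8, 15.5, 15.99 and 14.2 CPM in WT pools with BIO, a log2 fold change of -0.92 ± 0.15 (edgeR adjusted p = 7.95e-05). Between untreated pools shha had not been called with 16 libraries in the fit, but it was with all 32, as used here. It had 22.03, 20.9, 20.1 and 19.4 CPM in stag2b-/- pools with BIO, against 34.5, 30.7, 29.5 and 30.6 CPM in WT pools with BIO. These groups lay apart, and the log2 fold change was -0.61 ± 0.12 (edgeR adjusted p = 0.000798).

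Of the other calls, noto was at 35.5 ± 3.58 CPM in stag2b-/- and 54.1 ± 9.96 CPM in WT pools with BIO (log2 fold change -0.61 ± 0.15, edgeR adjusted p = 0.00656), and foxa was at 26.95 ± 1.70 CPM in stag2b-/- and 36.1 ± 2.40 CPM in WT pools with BIO (log2 fold change -0.42 ± 0.11, edgeR adjusted p = 0.00653). For twist2, the only overlapping one of the 6, the adjusted p was 0.0488 with edgeR, 0.0574 with RLE size factors and 0.0574 with no filter on low counts, and the call was lost in 6 of the 8 fits with a library left out, at up to 0.133. It held without WT replicate 3 or stag2b-/- replicate 1. The genes foxa2 and shhb, which fell in untreated stag2b-/-, were not called with BIO, at log2 fold changes of -0.23 ± 0.14 and -0.59 ± 0.23 (edgeR adjusted p = 0.303 and 0.0876). Their interaction coefficients were 0.32 ± 0.20 and 0.40 ± 0.32, and neither passed the test (edgeR adjusted p = 0.521 and 0.654).

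BIO-treated stag2b-/- pools were also set against untreated WT pools. There 4 of the 9 genes were called and all 4 were lower, with 21.4% of all tested genes called and 11.7% called lower. They were ism1 (log2 fold change -0.51 ± 0.09), tdgf1 (-0.65 ± 0.15), noto (-0.54 ± 0.15) and shha (-0.37 ± 0.12), with edgeR adjusted p values of 8.47e-05, 0.0024, 0.0103 and 0.0268. The shha call was lost without WT replicate 2 or 4 or stag2b-/- replicate 3 or 4. The log2 fold changes of foxa, foxa2 and twist2 in this comparison were -0.13, -0.15 and -0.16, with 95% intervals that include 0. Those of shhb and foxa3, which were not called either, were also below 0. The median log2 fold change of the 9 genes was -0.33, against -0.02 over all tested genes. The untreated WT pools are those already compared with untreated stag2b-/-, so the count called here is not independent evidence.

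Of the 8 tailbud progenitor markers, 3 were called lower in BIO-treated stag2b-/- against BIO-treated WT pools, with sums of 1744 to 1839 CPM in stag2b-/- and 2177 to 2318 CPM in WT pools. Neural crest markers (3 of 4 called, higher) summed to 184 to 201 CPM in stag2b-/- and 126 to 143 CPM in WT pools with BIO. Endothelial markers (2 of 3 called, lower) summed to 52.8 to 64.8 CPM in stag2b-/- and 90.8 to 119 CPM in WT pools with BIO, and epidermal markers (3 of 5 called, higher) to 23690 to 28640 CPM in stag2b-/- and 15430 to 22200 CPM in WT pools with BIO. Against untreated WT pools all 4 neuron markers were called higher, with sums of 107 to 125 CPM in stag2b-/- with BIO and 69.8 to 106 CPM in untreated WT pools. There 2 of 3 endothelial markers were called lower, against 68.9 to 112 CPM in untreated WT pools, and none of the 8 tailbud progenitor markers was called by edgeR or DESeq2, with 2 at an unadjusted p under 0.05. The part of these cells in the midline values was not tested.

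In the rad21 line with BIO, 6 of the 9 genes were called in rad21-/- against WT, with 35.6% of all tested genes called. The genes foxa3 (log2 fold change -1.43 ± 0.12), shhb (-1.14 ± 0.23) and tdgf1 (-0.64 ± 0.15) were lower, and foxa (0.50 ± 0.11), foxa2 (0.45 ± 0.14) and twist2 (0.45 ± 0.14) were higher. The edgeR adjusted p values ran from 2.91e-11 for foxa3 to 0.0111 for foxa2, none of the 6 overlapped between the groups, and all 6 calls held in each fit with a library left out. The FoxA genes thus lay on both sides, with foxa2 at 46.9 ± 5.52 CPM in rad21-/- and 34.2 ± 4.02 CPM in WT pools with BIO and foxa3 at 8.04 ± 1.12 CPM in rad21-/- and 21.8 ± 1.27 CPM in WT pools with BIO. In rad21+/- against WT, both with BIO, 4 of the 9 genes were called and all 4 were higher, with 22.9% of all tested genes called and 11.7% called higher. They were twist2 (0.60 ± 0.14), shha (0.47 ± 0.12), foxa3 (0.37 ± 0.11) and foxa (0.36 ± 0.11), with edgeR adjusted p values of 0.00147, 0.00391, 0.0156 and 0.0114. None of these 4 overlapped between the groups, and the foxa3 call was lost without WT BIO replicate 4 (edgeR adjusted p = 0.0502).

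Markers of other cells differed in both of these comparisons. In rad21-/- with BIO, 5 of 8 tailbud progenitor markers were called lower and 2 higher, with sums of 1538 to 1617 CPM in rad21-/- and 2177 to 2318 CPM in WT pools with BIO. Neural crest markers (3 of 4 called, higher) summed to 218 to 260.5 CPM in rad21-/- and 126 to 143 CPM in WT pools with BIO. In rad21+/- with BIO, 3 of 4 neuron markers were called higher, with sums of 125 to 164 CPM in rad21+/- and 87.2 to 100.1 CPM in WT pools with BIO. Blood markers (2 of 3 called, lower, in each) summed to 40.3 to 128 CPM in rad21-/-, 40.5 to 152 CPM in rad21+/- and 78.1 to 157 CPM in WT pools with BIO, and epidermal markers (3 of 5 called, higher, in each) to 19820 to 28980 CPM in rad21-/-, 24630 to 26560 CPM in rad21+/- and 15430 to 22200 CPM in WT pools with BIO. Their part was not tested.

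Ranked by group mean over the 8 groups, untreated stag2b-/- was lowest for 7 of the 9 genes and untreated rad21-/- for foxa3 and shhb. Highest were rad21+/- with BIO for 5 genes, rad21-/- with BIO for foxa and foxa2, untreated rad21+/- for foxa3 and WT with BIO for shhb. Neighbors in this order overlapped in 58 of 63 cases, so most single steps were within the spread of the pools. Groups were sorted by their own means, so neighbors are the closest groups and overlap between them was likely in advance. The lowest and highest groups and the overlaps were not counted over all genes, so these counts only describe the 9 genes. The 5 steps without overlap were those from stag2b-/- with BIO down to untreated stag2b-/- for foxa, foxa2 and twist2, from untreated rad21-/- down to stag2b-/- with BIO for ism1, and from untreated stag2b-/- down to rad21-/- with BIO for foxa3. In the last of these the means were 20.3 ± 1.02 CPM in untreated stag2b-/- and 8.04 ± 1.12 CPM in rad21-/- pools with BIO.

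Over the 32 libraries, several of the 9 genes were among each other's closest genes, by Pearson's r of log2 CPM over 13833 genes. These correlations describe 32 libraries that share 8 groups and are given with no test. The closest gene to foxa was twist2 (r = 0.94), and foxa was in turn the closest to twist2. The closest to ism1 was shha (r = 0.91), whereas those closest to shha were crip2 (r = 0.94) and ca8 (r = 0.93). For noto the closest was the FGF ligand gene fgf3 (r = 0.87), for foxa2 APLNR, an Apelin receptor gene (r = 0.90), for tdgf1 the Ephrin receptor gene epha4a (r = 0.90), and for shhb si:rp71-78h1.10 (r = 0.87). The 3 closest to foxa3 were bmp3 (r = 0.97), tnfrsf19 (r = 0.96) and nkx6.1 (r = 0.96). Around the group means the r of foxa and twist2 was 0.65 and that of shha and ism1 was 0.54. The gene foxa3 had r = -0.29 with foxa and -0.40 with foxa2 over the 32 libraries, and 0.50 and 0.07 around the group means.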

How the data were processed

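RNA from pools of 80 tailbuds was sequenced from stranded poly(A) libraries. The authors deposited raw fragment counts per gene, made by trimming with cutadapt, alignment to GRCz11 with HISAT2 and strand-specific counting with featureCounts 1.5.3 (Ensembl 98). Symbols came from a gene name table (28988 of 32057 IDs) and, for 10841 capitalised ones, from RefSeq by chromosome. Tests on the counts used edgeR 4.0.16 under R 4.3.3 (TMM, filterByExpr, robust quasi-likelihood, Benjamini-Hochberg, 5% FDR). Untreated comparisons used 16 libraries (20677 genes) and all others 32 (21385 genes). Replicate numbers were not used as a block. Alternatives were DESeq2 1.42.0, its size factors, no filter, other sets of libraries, a block and each library left out. The edgeR test of untreated stag2b-/- against WT was checked on simulated data with log2 changes of at least 1 in size. Smaller changes, the other comparisons and DESeq2 were not checked in this way. The 9 genes and all lists were chosen with earlier results of these data known. Named genes were the 9, rad21a and stag2b, up to 3 per list and comparison by largest log2 fold change, and the 3 closest genes by correlation (log2 CPM, prior count 2), of which the closest are printed. Some other list genes are given beside these. In the lists dhh, gas1a, gas1b, mylpfa, hbbe1.1 and etv2, and sequences, were not analysed here, and 1 further gene is not reported here.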

Additional observations from a re-analysis of the deposited data

Results flagged for a closer look

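In 6 of 88 sets of 4 pools (9 genes, rad21a and stag2b in 8 groups), 1 pool stood far from the other 3, and chance gives about 1 set in 20. The pool of rad21+/- untreated replicate 1 was the highest for both shha (50.8 CPM) and twist2 (22.9 CPM). The shha call in rad21+/- against WT held without it (edgeR adjusted p up to 0.0488 over the 8 fits) and the twist2 call did not. The pool of WT BIO replicate 4 had 6.35 CPM of shhb, and that of stag2b-/- BIO replicate 1 had 15.7 CPM of twist2. For the mutated gene rad21a, rad21+/- untreated replicate 3 had 331 CPM and rad21-/- BIO replicate 1 had 67.9 CPM.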

How the results depend on the processing

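Of 46 calls of the 9 genes outside the interactions, 29 held in every fit with a library left out, and over the other settings 243 of 253 values were still called and none changed sign. The count of called genes with a library left out ran from 2 to 8 in untreated stag2b-/-, from 1 to 3 in untreated rad21+/-, from 0 to 1 for BIO in WT, from 0 to 3 for BIO in rad21-/- and from 0 to 1 for BIO in stag2b-/-. In untreated rad21-/- against rad21+/- it was 5 with all 32 libraries in the fit. For BIO in WT it was 0 with RLE size factors, 0 with no filter and 0 with only the groups compared. For BIO in rad21-/- it was 2 with RLE size factors, 3 with DESeq2 and 2 with only the groups compared, for BIO in rad21+/- 1 with DESeq2, and for BIO in stag2b-/- 3 with DESeq2 and 0 with only the groups compared. In untreated stag2b-/- against WT, only the groups compared gave 5 calls, without foxa (adjusted p = 0.103) and twist2 (0.0802), and tdgf1 was lost in untreated rad21-/- against WT (0.06) and shha in BIO-treated stag2b-/- against untreated WT (0.112). With a block for the replicate number all 46 calls were kept and 8 were added, and the counts were 3 for BIO in rad21-/-, 2 in rad21+/- and 3 in stag2b-/-. Replicate numbers were no shared litter or day in the labels, and same-number correlations of the deviations ran from -0.15 to 0.38. At least 1 of the 4 was over 0.1 in 27 of 28 pairs of groups and all 4 in 3, none of them compared here. In 7 of the 28 pairs each of the 4 pools of 1 group correlated best with its own number in the other group. The reverse direction was not counted. The mean correlation with other numbers was below 0 in all 28, from -0.0649 to -0.0021. Deviations from a group mean sum to 0 within the group, so this mean mirrors the same-number values and adds no evidence. By the same-number correlations, pools with the same number were somewhat alike. The running sample numbers in the library names were consecutive within each replicate number, and the labels do not say what else these pools share. The interactions gave 0 calls in all settings. The causes of these changes were not tested.

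Values that were never called changed sign in 10 cases with a library left out. They were shha in rad21-/- against WT (log2 -0.0303 to 0.21), noto (-0.16 to 0.0598) and foxa2 (-0.0699 to 0.14) in rad21+/- against WT, and foxa in rad21-/- against rad21+/- (-0.0973 to 0.0465), all untreated. With BIO against WT they were noto in rad21-/- (-0.10 to 0.0911, and -3e-04 with no filter), foxa3 in stag2b-/- (-0.024 to 0.0884) and shhb in rad21+/- (-0.42 to 0.0109). For the response to BIO they were noto in WT (-0.0368 to 0.17), shha in stag2b-/- (-0.0042 to 0.17) and foxa3 in rad21+/- (-0.0606 to 0.0627). Over all genes, calls in untreated stag2b-/- against WT were 1300, and 2054 with DESeq2, 2480 with all 32 libraries, 558 with only the groups compared and 792 without WT replicate 4. Untreated rad21-/- against rad21+/- gave 1099, and 1787 with all 32 libraries. For BIO in rad21+/- they were 775, and 513 with no filter, 1836 with the block, 1564 with DESeq2 and 1211 with only the groups compared. For BIO in rad21-/- they were 1532 and 2412 with the block, in WT 3709 and 1603 with only the groups compared, and in stag2b-/- 1708 and 930 with only the groups compared. BIO-treated stag2b-/- against untreated WT gave 4566, and 2533 with only the groups compared. The interactions gave 187 (rad21-/-), 195 (rad21+/-) and 287 (stag2b-/-), 307, 366 and 507 with the block, 405, 447 and 522 with DESeq2 and 62, 74 and 90 with only the groups compared. With single libraries left out, calls for BIO reached lowest values of 119 in rad21+/-, 674 in rad21-/- and 849 in stag2b-/-. The low count of shhb, at 1.04 to 6.35 CPM, limits its precision.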

Other observations

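The hypochord, a rod of cells under the notochord, arises from the same progenitors. Of 5 genes expressed there, 2 were called in untreated stag2b-/- against WT, where 6.29% of all tested genes were called, and both fell, the vascular growth factor gene vegfaa and the segmentation gene her1 (log2 fold change -0.68 ± 0.18 and -0.43 ± 0.11, edgeR adjusted p = 0.0308 and 0.0209). The other 3 were not called, with log2 fold changes of 0.24 ± 0.10 for gdf6a, 0.28 ± 0.10 for cdh6 and -0.03 ± 0.17 for hapln1a, and the list median was -0.03. An unadjusted p under 0.05 was found for 4 of the 5, in both directions. In untreated rad21-/-, where 32.5% of all tested genes were called, her1 (-1.01 ± 0.11), gdf6a (-0.59 ± 0.10) and vegfaa (-0.53 ± 0.18) fell and hapln1a (0.67 ± 0.17) rose. In rad21+/-, with 20.5% of all tested genes called, hapln1a rose (0.67 ± 0.17) and her1 fell (-0.38 ± 0.11). The gene her1 is also a clock gene of the presomitic mesoderm, so its level is not that of the hypochord alone.

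The Nodal pathway, for which tdgf1 encodes a co-receptor, gave no call among 12 other tested genes in untreated stag2b-/- against WT with edgeR, 2 with DESeq2 and 3 at an unadjusted p under 0.05. In rad21-/- 4 rose and 2 fell, with 32.5% of all tested genes called, among them foxh1 (1.083 ± 0.24), which encodes a Smad cofactor, the left-right antagonist gene dand5 (-1.40 ± 0.36) and the activin receptor gene acvr2bb (0.68 ± 0.18). In rad21+/- 4 rose, with 10.8% of all tested genes called higher, and foxh1 was at 1.18 ± 0.24. Of the 3 paralogs of twist2, only twist3 was called, lower in rad21-/- (-1.14 ± 0.36). In stag2b-/-, where twist2 fell, none of the 3 was called by edgeR or DESeq2 or had an unadjusted p under 0.05.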
